A study of Mus musculus with 12 samples.

Results

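The effect of cyto-IL-15 on the TRAMP-C2 tumor transcriptome was estimated over all 12 tumors of the series, by setting the 6 tumors that received cyto-IL-15 against the 6 that did not. The tumors were chosen by their treatment label alone. The 6 with cyto-IL-15 were the 3 tumors of the cyto-IL-15 group and the 3 of the combination group, and the 6 without it were the 3 HBSS (control) tumors and the 3 ADU-S100 tumors. The line TRAMP-C2 derives from prostate cancer of a mouse and was grown here under the skin of male C57BL/6J mice that were 6 to 8 weeks old. Tumors of about 200 mm3 were injected directly. The vehicle group was given 3 doses of 50 µl of HBSS, a salt solution. The other groups received 2 doses of 10 µg cyto-IL-15, 3 doses of 50 µg ADU-S100, or both courses together. Cyto-IL-15 was diluted in PBS, a buffered saline, and ADU-S100 in HBSS. The number of doses and the diluent therefore also varied with the cyto-IL-15 label. All tumors were removed on day 6. Because ADU-S100 was given to 3 tumors on each side of the comparison, it entered the model as a second factor, and the tumors without it (cyto-IL-15 against HBSS) and those with it (combination against ADU-S100) are called the strata below. Tumors are named here as in the labels (9R, 22LL and so on). The number 22 occurs in the HBSS, ADU-S100 and combination groups and the number 20 in the cyto-IL-15 and combination groups, and the labels do not say whether a number marks a mouse, a cage or neither. The p-values measure the spread between these tumors.

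Interleukin-15 is a cytokine that is carried on cell surfaces by its own receptor chain (Il15ra) and handed to neighbouring lymphocytes that bear the chains Il2rb and Il2rg. These chains signal through the kinases JAK1 and JAK3 and the transcription factor STAT5, and they sustain natural killer (NK) cells, memory CD8+ T cells and related lymphocytes. Such cells kill by releasing granules that hold perforin, which opens membranes, and granzymes, proteases that enter the target. Cyto-IL-15 is an interleukin-15 protein modified to anchor in membranes near the injection site. ADU-S100 activates STING, an adaptor that answers DNA in the cytosol with type I interferon.

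Total counts ranged from 48772204 to 103700199 per tumor, with a median of 71218525. Tumor 13, of the cyto-IL-15 group, and tumor 28LL, of the combination group, stood apart from the rest, with a Pearson's r of 0.909 to 0.958 over log2 expression against the other tumors, whereas the other 10 correlated with each other at 0.970 to 0.994. Main results are therefore also given without these 2 tumors. Both had received cyto-IL-15, so leaving them out takes tumors from that side of the comparison only. Yap1, a coactivator of the Hippo growth pathway, took 3.32% of all counts in tumor 13, 0.516% in HBSS tumor 22LL and 0.114% in tumor 28LL. The TRAMP-C2 label was checked with epithelial and prostate genes. Cdh1 was measured in every tumor at 2.77 to 22.9 CPM (read counts scaled to a common library size) and the keratin gene Krt8 at 2.18 to 144 CPM, whereas the prostate gene Pbsn was below the filter on low counts. These are bulk tumors, in which fewer cells of a type and less RNA per cell cannot be told apart.

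Over the 20132 genes tested, the lists of muscle fiber, mast cell and muscle regeneration genes had the highest median log2 fold changes (3.05, 2.32 and 2.09), followed by the cytotoxic granule and NK cell lists (1.67 each). Gzmc, a granule gene, had the smallest p. The matrix, pericyte and endothelial lists had medians below 0. No gene passed the test of edgeR for the pooled effect at the thresholds used, an adjusted p under 0.05 with a log2 fold change above 1 in size, so 0% were called, with 0.600 as the smallest adjusted p. At an unadjusted p under 0.05 there were 1544 genes (7.67%), of which 1007 were higher with cyto-IL-15 (5.00%) and 537 lower (2.67%). This balance turned with limma voom, which gave 533 higher and 781 lower, and with tumor weights, which gave 1031 and 1093. The Wald test of DESeq2 on the same 12 tumors and model called 80 of 22309 genes (0.359%), 74 higher (0.332%) and 6 lower (0.0269%). In the same edgeR model the ADU-S100 factor gave 232 called genes (1.15%). Another description, which uses no p, asks whether the 3 tumors with cyto-IL-15 all lay above, or all below, the 3 without it in both strata. This held for 91 genes that were higher (0.452%) and 93 that were lower (0.462%), which are called separated below. A separated gene need not have a small p, and the matrix gene Lum had an unadjusted p of 0.117 by edgeR. Without tumors 13 and 28LL edgeR again called no gene (smallest adjusted p of 0.192), 917 genes were higher at an unadjusted p under 0.05 (4.44%) and 845 lower (4.09%), together 8.52%.

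Cytotoxic granule genes were higher with cyto-IL-15. Of 18 tested members, 15 had an unadjusted p under 0.05 and were higher with cyto-IL-15, none was lower at that level, and 3 were separated (Gzmc, Gzma and Gzmf). These genes had a median log2 fold change of 1.67, against 0.05 over all tested genes. DESeq2 called 4 members (Gzmc, Gzma, Prf1 and Gzmb). Without tumors 13 and 28LL the median was 1.29, and 12 members were higher at that level. It was 0.84 with the level of muscle fiber genes as a covariate, since muscle RNA moved with the comparison (values are given with the muscle genes).

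Gzmc, which encodes a granzyme of activated killer lymphocytes, had the smallest p of all tested genes. It lies on chromosome 14 of GRCm38 from 56231401 to 56234656, on the minus strand. It had 0.911, 0.871 and 1.19 CPM in the HBSS tumors and 21.8, 38.7 and 14.5 CPM in the cyto-IL-15 tumors. It had 57.0, 61.4 and 106 CPM in the ADU-S100 tumors and 143, 216 and 2210 CPM in the combination tumors. The groups did not overlap in either stratum, and tumor 28LL lay far above the other combination tumors. The pooled log2 fold change of Gzmc was 4.06 (standard error 0.67, adjusted p of 0.600 by edgeR and 7.4e-09 by DESeq2), and it was 2.71 without tumors 13 and 28LL. Gzma, the granzyme that cleaves after basic residues, had 3.01, 1.74 and 2.46 CPM with HBSS against 18.7, 9.40 and 44.4 CPM with cyto-IL-15. With ADU-S100 it had 36.1, 55.6 and 74.4 CPM, against 88.9, 372 and 1614 CPM in the combination. All 6 tumors with cyto-IL-15 lay above their 3 counterparts, with a pooled log2 fold change of 3.49 (standard error 0.62).

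Prf1, which encodes perforin, and Gzmb, which encodes the granzyme that activates caspases, were separated among tumors without ADU-S100 and overlapped by 1 tumor with it. Prf1 had 4.16, 2.38 and 3.46 CPM with HBSS and 20.5, 13.6 and 23.8 CPM with cyto-IL-15. It had 22.0, 43.2 and 52.0 CPM with ADU-S100 and 41.5, 159 and 1303 CPM with the combination, so that combination tumor 20L lay within the ADU-S100 range. Gzmb had 2.77, 2.42 and 4.09 CPM with HBSS and 12.5, 18.2 and 13.96 CPM with cyto-IL-15. It had 39.3, 57.2 and 85.2 CPM with ADU-S100 and 61.2, 306 and 2307 CPM with the combination, and tumor 20L again overlapped. Their pooled log2 fold changes were 3.12 (standard error 0.69) and 3.09 (standard error 0.72). For 6 single genes of the pathway, the cyto-IL-15 label was also permuted within each stratum on log2(CPM + 0.5). This two-sided exact test had 400 arrangements and a smallest p of 0.005. The genes were picked with earlier results of these data known, so these are not tests of genes set in advance. The 6 p values are not adjusted. The mean difference was 2.35 for Gzmb (exact permutation p of 0.01) and 2.41 for Prf1 (exact permutation p of 0.015).

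The granzyme genes beside Gzmc on chromosome 14 had large fold changes that came from few tumors. Gzmf, the only other separated member, had 0, 0.0134 and 0.0219 CPM with HBSS, and 0.0964, 6.62 and 0.0889 CPM with cyto-IL-15, where the 6.62 was in tumor 13. It had 13.1, 20.7 and 42.2 CPM with ADU-S100 and 47.6, 71.9 and 1947 CPM with the combination. Its pooled log2 fold change was 5.23, and 1.39 without tumors 13 and 28LL, and DESeq2 gave it no adjusted p. Gzmd, Gzme and Gzmg, picked after their values were seen as the remaining neighbours, had log2 fold changes of 5.81, 5.37 and 6.12. These neighbours are near-identical paralogs whose reads may be shared, so their counts are uncertain. The likeness extends to their promoters, and the windows of Gzmc and Gzmf are shown to let it be seen, with the longest run of bases common to both in capitals. The window of Gzmb is shown for its match to the STAT motif, also in capitals. All are RefSeq windows of 300 bases around the start site on build GRCm38.p6, minus strand, printed 5′ to 3′.
Gzmc, chr14:56234608-56234907: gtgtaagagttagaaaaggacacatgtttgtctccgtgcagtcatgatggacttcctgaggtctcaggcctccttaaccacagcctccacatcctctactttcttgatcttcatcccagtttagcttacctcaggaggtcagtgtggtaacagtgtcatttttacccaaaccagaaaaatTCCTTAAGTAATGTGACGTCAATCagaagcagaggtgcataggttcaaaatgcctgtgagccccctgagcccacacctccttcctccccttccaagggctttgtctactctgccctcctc
Gzmf, chr14:56211358-56211657: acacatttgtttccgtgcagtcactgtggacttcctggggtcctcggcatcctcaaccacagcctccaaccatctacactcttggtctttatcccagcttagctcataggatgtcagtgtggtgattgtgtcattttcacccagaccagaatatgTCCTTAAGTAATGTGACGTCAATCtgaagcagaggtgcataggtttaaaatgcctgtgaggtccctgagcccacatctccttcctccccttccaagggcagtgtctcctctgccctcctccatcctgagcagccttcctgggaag
Gzmb, chr14:56262285-56262584: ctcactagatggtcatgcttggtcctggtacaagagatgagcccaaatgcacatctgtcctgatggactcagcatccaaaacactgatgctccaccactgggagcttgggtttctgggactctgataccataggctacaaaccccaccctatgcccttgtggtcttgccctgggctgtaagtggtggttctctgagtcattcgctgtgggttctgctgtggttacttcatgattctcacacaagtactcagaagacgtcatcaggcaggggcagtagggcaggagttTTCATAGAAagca

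The run of 24 bases shared by Gzmc and Gzmf began 70 bases before the start site of Gzmc and 95 before that of Gzmf, and the windows were identical in 73.5% of 325 aligned columns. Against Gzmb, the Gzmc window was identical in 46.2% of 342 columns, with a longest shared run of 9 bases. Promoter windows were searched on both strands for TTCNNNGAA, the palindromic motif that STAT factors bind, and for GGTGTGA, a core motif of T-box factors such as Eomes and Tbx21. The first was in 8.30% and the second in 3.98% of all 32851 windows. The match in Gzmb began 37 bases after the start site. Counted by gene, 3 of the 16 granule genes with a window held the STAT motif and 4 of 16 the T-box motif, against 9.55% and 4.60% of all 27025 genes. Of 24 NK cell genes with a window 2 held the STAT motif and 3 the T-box motif, and of 11 T cell genes 1 and 0. The windows of Gzmc, Gzma, Gzmf, Prf1, Klrb1c, Ncr1 and Eomes held no STAT match, whereas those of the lower genes Zbtb20 and Clca2 did. A match is a description of the letters in the window and not a binding site.

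Among the chains that bind interleukin-15, Il2rb had the largest difference. Il2rb had 26.4, 16.1 and 20.0 CPM with HBSS and 70.6, 25.4 and 83.2 CPM with cyto-IL-15, where the 25.4 was in tumor 13. It had 39.6, 68.3 and 65.6 CPM with ADU-S100 and 63.8, 152 and 681 CPM with the combination. The groups overlapped by 1 tumor in each stratum. The pooled log2 fold change of Il2rb was 1.95 (standard error 0.51, unadjusted p of 0.0026), DESeq2 called it (adjusted p of 0.0284), and the exact permutation p was 0.03. That p was 0.05 when HBSS tumor 22R or ADU-S100 tumor 17LL was left out. Il15ra, the carrier chain, had 6.97 to 11.4 CPM with HBSS, 6.68 to 12.4 CPM with cyto-IL-15, 13.1 to 14.98 CPM with ADU-S100, and 11.02, 13.6 and 34.7 CPM with the combination. Its pooled log2 fold change was 0.30 (standard error 0.28), the exact permutation p was 0.625, and without tumor 28LL the log2 fold change was -0.03. Il2rg, the shared γ chain, had a log2 fold change of 0.50, and 0.40 without tumors 13 and 28LL. The cytokine gene Il15 itself had a log2 fold change of -0.15, with 1.34 CPM in tumor 13 and 5.34 to 13.9 CPM in the other tumors.

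The list of signaling parts and STAT5 targets held 12 tested genes, of which 2 were higher at an unadjusted p under 0.05, against 5.00% of all genes. The median log2 fold change was 0.42. Without tumors 13 and 28LL it was 0.03, with 0 higher and 1 lower at that level (4.44% and 4.09% of all genes). The 2 higher genes, Il2ra and Socs3, had their highest value in tumor 28LL and tumor 13, respectively. Il2ra, the α chain of the interleukin-2 receptor and a target of STAT5, had 57.3 CPM in tumor 28LL and 0.911 to 7.67 CPM in the other 11 tumors. Socs3, a feedback inhibitor of cytokine signaling, had 262 CPM in tumor 13, 232 CPM in tumor 28LL and 44.4 to 84.2 CPM elsewhere, and its log2 fold change of 1.05 was 0.00 without them.

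**Figure D1:**
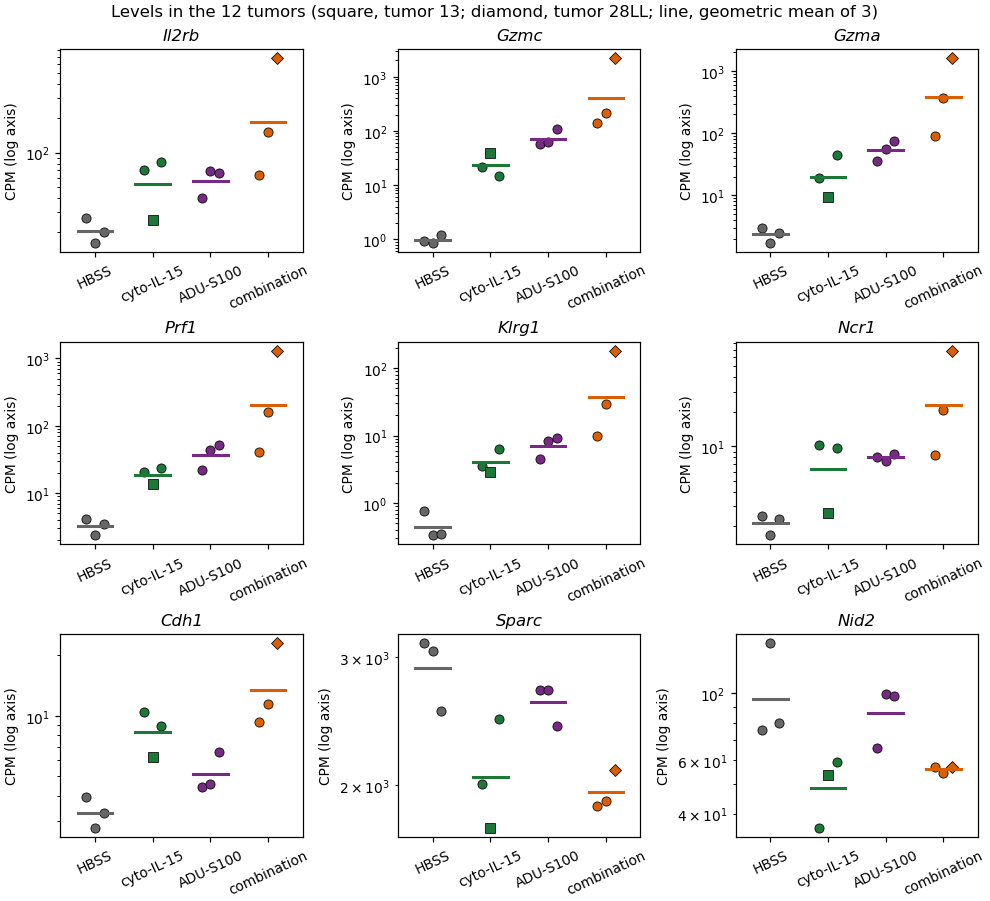
Levels of 9 named genes in each of the 12 tumors, in TMM-normalized CPM on a log axis, by treatment group; points are tumors, the square is tumor 13, the diamond is tumor 28LL and the line is the geometric mean of the 3 tumors. Gzmc, Gzma, Klrg1 and Cdh1 lie higher with cyto-IL-15 in both strata and Sparc and Nid2 lie lower, without overlap, whereas Il2rb, Prf1 and Ncr1 overlap by at least 1 tumor.

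NK cell genes were higher as a group. Of 28 tested members, 22 were higher at an unadjusted p under 0.05, where 5.00% of all genes were. No member was lower, and 4 were separated (Klrg1, Klra6, Klrb1c and Klrd1), where 0.452% of all genes were separated and higher. The median log2 fold change was 1.67 (1.81 without ADU-S100 and 1.54 with it). It was 1.42 without tumors 13 and 28LL, where 24 members were higher at that level, against 4.44% of all genes. With the muscle covariate the median was 0.80. DESeq2 called 16 members, where it called 0.332% of all genes higher. Of its 80 called genes, 14 were lectin-like receptor genes whose symbols begin with Klr, all of them on chromosome 6. Several of these receptors are near-identical copies, and their separate counts are uncertain.

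Klrg1, a receptor of mature NK cells and effector T cells (chromosome 6, 122270596 to 122282882), had 0.764, 0.335 and 0.350 CPM with HBSS and 3.55, 2.85 and 6.39 CPM with cyto-IL-15. It had 4.54, 8.27 and 9.29 CPM with ADU-S100 and 10.0, 29.1 and 181 CPM with the combination. No value with cyto-IL-15 fell into the range of its stratum, and the log2 fold change was 3.24 (standard error 0.61). Klrb1c, the NK1.1 antigen, had 1.76 to 2.31 CPM with HBSS and 10.3, 2.54 and 10.97 CPM with cyto-IL-15. It had 7.83 to 8.25 CPM with ADU-S100 and 10.8, 23.3 and 77.1 CPM with the combination. Tumor 13 (2.54 CPM) lay only just above the HBSS tumors, and the log2 fold change was 2.11 (standard error 0.45).

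Ncr1, which encodes the NK receptor NKp46, had 2.47, 1.68 and 2.30 CPM with HBSS and 10.2, 2.64 and 9.66 CPM with cyto-IL-15. It had 8.09, 7.36 and 8.55 CPM with ADU-S100 and 8.37, 20.6 and 68.3 CPM with the combination, so that tumor 20L lay inside the ADU-S100 range. Its log2 fold change was 1.91 (standard error 0.46), and the exact permutation p was 0.01. Eomes, a T-box factor that NK and memory CD8+ T cells need, differed by 2.32 on the log2 scale (standard error 0.56), and its tumor 20L with 10.4 CPM again lay among the ADU-S100 tumors (7.94 to 11.3 CPM). Klrd1, the CD94 chain of NKG2 receptors, had a log2 fold change of 1.84 and the inhibitory receptors Klra5 and Klra6 had 3.54 and 1.66.

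T cell genes were higher by less. All 22 tested members had a log2 fold change above 0, and 18 were higher at an unadjusted p under 0.05, against 5.00% of all genes. The median was 1.20, and 0.44 with the muscle covariate. Without tumors 13 and 28LL it was 1.17, and all 22 were higher at that level, against 4.44% of all genes. Of these left-out tumors, 13 had 16 of the 22 below all 3 HBSS tumors (39.5% of all genes). Tumor 28LL had all 22 above all 3 ADU-S100 tumors (38.0% of all genes). DESeq2 called none of the members. Where 0.452% of all genes were separated and higher, 1 of the 22 was. That gene, Icos, a costimulatory receptor, had 0.884 to 2.65 CPM with HBSS and 2.75 to 4.78 CPM with cyto-IL-15, and 1.58 to 2.85 CPM with ADU-S100 against 3.74 to 25.1 CPM with the combination. Zap70 and Lck, kinases of the T cell receptor, had log2 fold changes of 1.63 (standard error 0.47) and 1.42 (standard error 0.44), and Trbc1, a constant segment of the T cell receptor, had 1.90 (standard error 0.58).

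The lymphocyte lists did not differ alike in the 6 tumors that received cyto-IL-15. All 22 T cell genes lay above their 3 counterparts in cyto-IL-15 tumors 9R and 20LL and in combination tumors 22 and 28LL. In tumor 13 and in tumor 20L this held for 1 of 22 genes, and 16 and 9 of the 22 lay below all 3 counterparts. Over all tested genes the share above all 3 was 29.4% in tumor 9R, 40.1% in tumor 13 and 31.7% in tumor 20LL, and 26.2%, 24.9% and 38.0% in the combination tumors 20L, 22 and 28LL. The share below all 3 was 31.0%, 39.5% and 28.3% in tumors 9R, 13 and 20LL, and 28.0%, 25.2% and 38.2% in tumors 20L, 22 and 28LL. NK cell genes followed the same tumors, with 26 of 28 above in 9R, 20LL and 28LL, 25 in tumor 22, 10 in tumor 13 and 5 in tumor 20L. Granule genes lay above in 14, 10 and 12 of 18 in tumors 9R, 13 and 20LL, and in 6, 16 and 17 of 18 in tumors 20L, 22 and 28LL. In tumor 13, Gzmb and Gzmc had the highest values of the cyto-IL-15 group, while Lck (6.24 CPM, against 7.11 to 12.2 CPM with HBSS) lay below every HBSS tumor.

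**Figure D2:**
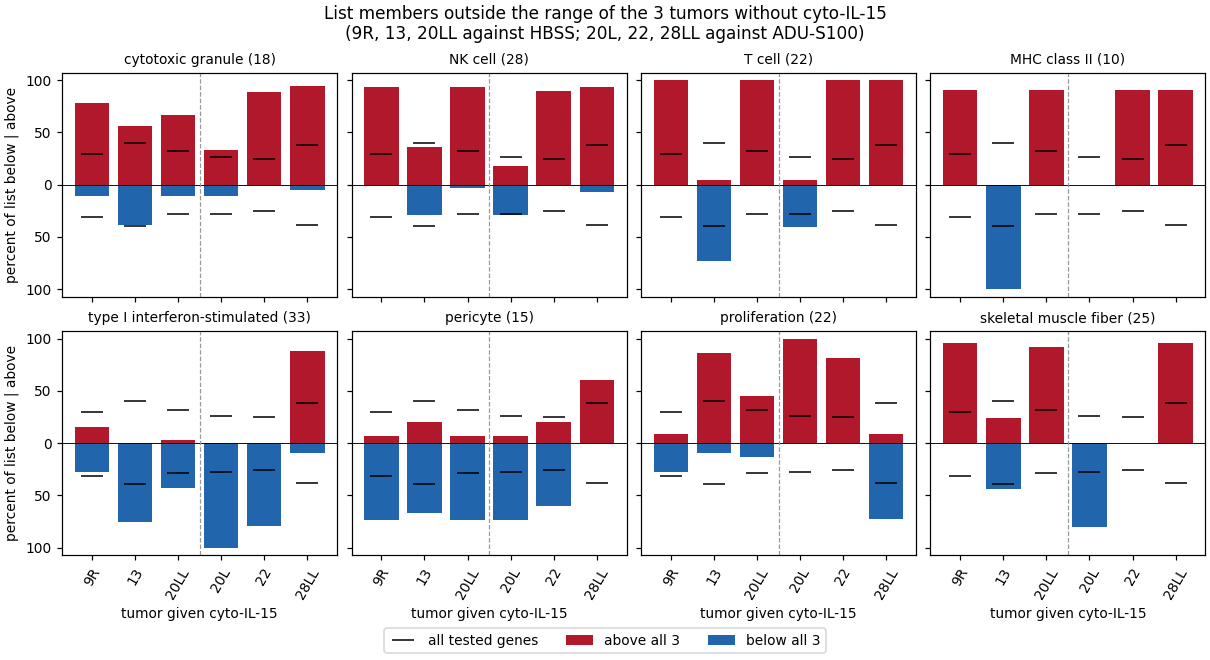
Share of the tested members of 8 gene lists (number in brackets) that lay above all 3 (red, upward) or below all 3 (blue, downward) tumors without cyto-IL-15 under the same ADU-S100 status, in percent, for each of the 6 tumors with cyto-IL-15; black marks give the share over all tested genes, and the dashed line parts the strata. T cell genes lie above in 22 of 22 in tumors 9R, 20LL, 22 and 28LL and in 1 of 22 in tumors 13 and 20L, and the muscle fiber genes vary between tumors as well.

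Genes of regulatory T cells and checkpoints were higher in 9 of 14 tested members at an unadjusted p under 0.05, against 5.00% of all genes. The median log2 fold change was 0.78. Without tumors 13 and 28LL it was 0.57, with 5 of 14 higher, against 4.44% of all genes. DESeq2 called 2 members (Pdcd1lg2 and Ctla4), where it called 0.332% of all genes higher. Where 0.452% of all genes were separated and higher, Ctla4, an inhibitory receptor of T cells, was the separated member. It had 1.12, 0.509 and 1.47 CPM with HBSS and 3.05, 2.04 and 2.41 CPM with cyto-IL-15, and 0.673, 1.26 and 1.24 CPM with ADU-S100 against 1.27, 2.73 and 9.59 CPM with the combination. Tumor 20L exceeded the highest ADU-S100 tumor by a narrow margin, and the log2 fold change was 1.69 (standard error 0.47). Pdcd1lg2, the PD-1 ligand PD-L2, had a log2 fold change of 2.33, with 7.94 CPM in tumor 28LL and 0.161 to 1.58 CPM in the other tumors.

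Effector cytokine genes were higher in 4 of 12 members at an unadjusted p under 0.05 (Fasl, Xcl1, Ifng and Csf2), against 5.00% of all genes. Fasl and Xcl1 are also in the NK cell list. Without tumors 13 and 28LL 4 of 12 were higher as well, against 4.44% of all genes. The median of the list was 0.85 on the log2 scale, and 0.44 without those tumors. Ifng, which encodes interferon-γ, had 0.472, 0.281 and 0.459 CPM with HBSS and 1.08, 0.464 and 1.52 CPM with cyto-IL-15. It had 1.94, 2.18 and 2.04 CPM with ADU-S100 and 1.11, 3.33 and 10.4 CPM with the combination, where tumor 20L lay below all ADU-S100 tumors. The log2 fold change of Ifng was 1.30 (standard error 0.46), and the exact permutation p was 0.125, which became 0.01 without tumor 20L. Fasl, the death ligand, was at 1.84 (standard error 0.52) and Xcl1, a chemokine for cross-presenting dendritic cells, had 1.32 (standard error 0.41). Csf2, which encodes GM-CSF, was at or below 1.40 CPM in every tumor, and its log2 fold change of 1.87 was 0.11 without tumors 13 and 28LL.

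Interferon-inducible lists had medians close to that of all genes or below it. Of 25 interferon-γ-inducible genes 1 was higher at an unadjusted p under 0.05 and none lower, with a median log2 fold change of 0.12. Of 33 type I interferon-stimulated genes 2 were lower and none higher, with a median of -0.21. That median was -0.52 without tumors 13 and 28LL, and 21 of the 33 were then lower at an unadjusted p under 0.05, against 4.09% of all genes. Ifi44, an interferon-induced gene, had 13.4, 6.98 and 10.8 CPM with HBSS and 8.62, 3.78 and 7.06 CPM with cyto-IL-15. It had 82.7, 78.7 and 127 CPM with ADU-S100 and 28.7, 41.9 and 94.4 CPM with the combination, and its log2 fold change was -0.75 (standard error 0.30). All 33 genes lay below the 3 ADU-S100 tumors in tumor 20L and 26 did in tumor 22, against 28.0% and 25.2% of all genes. In tumor 28LL, by contrast, 29 lay above, against 38.0% of all genes. Oasl2, a member of the oligoadenylate synthetase family, was the other gene with an unadjusted p under 0.05 (-0.52, standard error 0.23). Xaf1, Irgm1 and Cxcl11 had log2 fold changes of -0.23, 0.01 and -0.23, and those of Irgm1 and Cxcl11 changed sign with the choice of tumors.

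MHC class II genes, which present antigen to CD4+ T cells, had log2 fold changes above 0 in 10 of 10 members, and none reached an unadjusted p of 0.05. Their median was 0.65, and 0.73 without tumors 13 and 28LL, where 5 were higher at that level, against 4.44% of all genes. Cd74, the invariant chain, had 976 to 2256 CPM with HBSS and 2535, 281 and 3112 CPM with cyto-IL-15, where the 281 was in tumor 13. It had 205 to 578 CPM with ADU-S100 and 339, 1008 and 815 CPM with the combination, and its log2 fold change was 0.72 (standard error 0.52).

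The medians of the neutrophil, monocyte and mast cell lists lay above 0 mainly through tumors 13 and 28LL. Of 14 neutrophil genes 5 were higher at an unadjusted p under 0.05, against 5.00% of all genes. Their median log2 fold change was 1.08, which was -0.04 without tumors 13 and 28LL. S100a8, a calcium-binding alarmin of neutrophils, had 50.4 CPM in tumor 28LL and 2.37 to 8.68 CPM in the other tumors given ADU-S100. The median of 16 inflammatory monocyte genes went from 0.78 to -0.02, and that of 12 mast cell and eosinophil genes from 2.32 to -0.04. Of the monocyte genes 4 were higher and 1 lower at an unadjusted p under 0.05, where 5.00% and 2.67% of all genes were. The counts of 4 and 1 were the same without those tumors. The mast cell protease gene Cma1 had 7.46 CPM in tumor 13 and 11.6 CPM in tumor 28LL, against 0.0804 to 1.74 CPM in the other tumors, and Cpa3, Mcpt4 and Tpsb2 also had their highest values in those tumors. Where 2.67% of all genes were lower at an unadjusted p under 0.05, 1 of 22 resident-type macrophage genes was. This was Vsig4, a complement receptor of tissue macrophages, with 0.737 to 1.04 CPM with HBSS, 0.470 to 0.636 CPM with cyto-IL-15, 0.143 to 0.491 CPM with ADU-S100 and 0.0598 to 0.160 CPM with the combination.

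**Figure D3:**
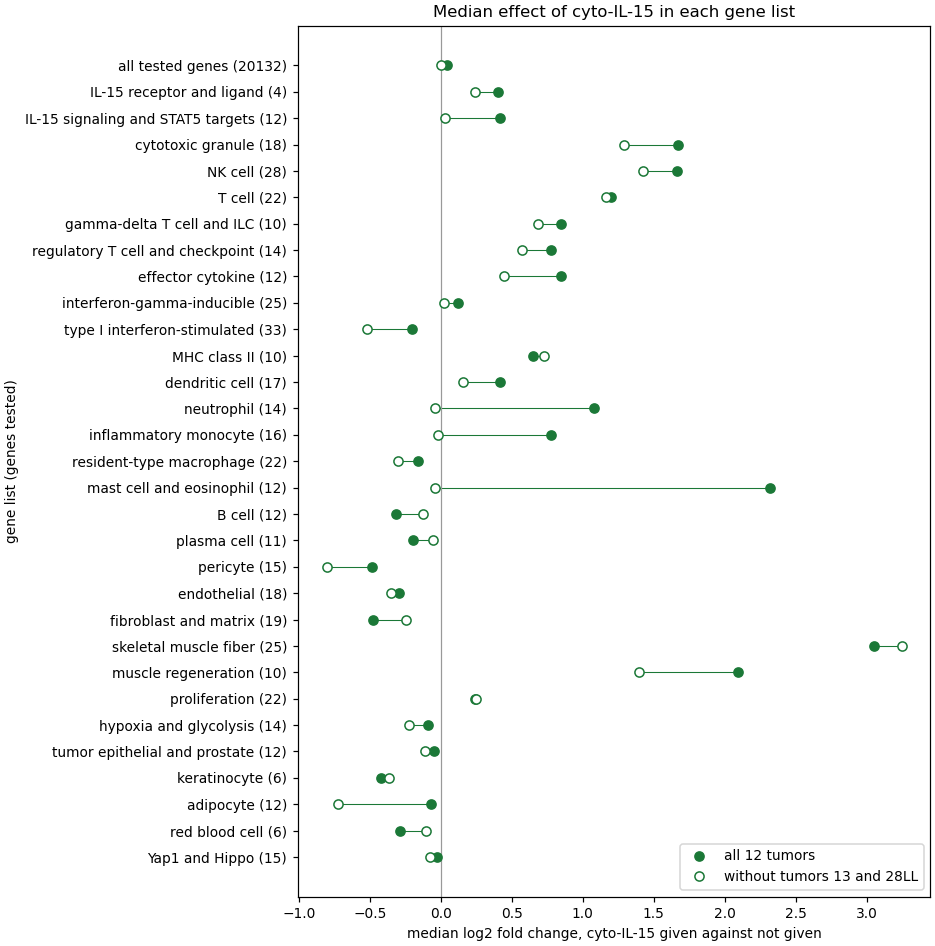
Median log2 fold change for cyto-IL-15 given against not given in each of the 30 gene lists (number of tested genes in brackets) and over all tested genes, with all 12 tumors (filled) and without tumors 13 and 28LL (open). Granule, NK and T cell lists keep medians above 1 in both, whereas the neutrophil, monocyte and mast cell medians go to between -0.04 and -0.02.

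With all 12 tumors, a minority of matrix and vessel wall genes were lower with cyto-IL-15 at an unadjusted p under 0.05. Of 19 fibroblast and matrix genes 5 were lower at an unadjusted p under 0.05 and 1 was higher, where 2.67% and 5.00% of all genes were. The median was -0.48 (-0.50 without ADU-S100 and -0.51 with it). Without tumors 13 and 28LL the median was -0.25, with 5 lower and 1 higher at that level (4.09% and 4.44% of all genes). The higher member, Thy1, is also in the T cell list. Sparc, a collagen-binding matrix protein that is among the 12 lower genes with the smallest p, had 3135, 3062 and 2527 CPM with HBSS and 2004, 1745 and 2462 CPM with cyto-IL-15. It had 2707, 2699 and 2410 CPM with ADU-S100 and 1871, 1900 and 2097 CPM with the combination. The groups did not overlap in either stratum, and the log2 fold change was -0.45 (standard error 0.11, and -0.42 without tumors 13 and 28LL). Nid2, a basement membrane protein, had 75.9, 147 and 79.6 CPM with HBSS and 35.9, 53.6 and 59.2 CPM with cyto-IL-15, and 66.1, 99.4 and 98.5 CPM with ADU-S100 against 57.2, 54.5 and 57.0 CPM with the combination. Its log2 fold change was -0.83 (standard error 0.20). Col1a1, the main fibrillar collagen chain, was at -0.51 (standard error 0.14), and Lum, a collagen-binding proteoglycan, was the separated member of the list, with 18.4 CPM in tumor 13 and 130 to 456 CPM in the other tumors.

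Of 15 pericyte genes 3 were lower at an unadjusted p under 0.05 and 1 was higher, where 2.67% and 5.00% of all genes were. The median was -0.49. The strata differed in this median, with -0.81 without ADU-S100 and 0.14 with it, and the difference was not tested. In tumor 28LL 9 of 15 lay above all 3 ADU-S100 tumors, against 38.0% of all genes. In each of the other 5 tumors 9 to 11 lay below all 3 counterparts, against 25.2% to 39.5% of all genes. Without tumors 13 and 28LL the median was -0.81 and 11 of 15 were lower at that level, against 4.09% of all genes. Pdgfrb, the growth factor receptor that marks pericytes, had 105, 144 and 98.0 CPM with HBSS and 52.0, 71.3 and 74.6 CPM with cyto-IL-15. It had 69.8, 125 and 118 CPM with ADU-S100 and 66.3, 61.6 and 87.3 CPM with the combination, and its log2 fold change was -0.67 (standard error 0.18). Rgs5, a regulator of G protein signaling in pericytes, had a log2 fold change of -1.76 without ADU-S100 and -0.01 with it. The higher member, Des, encodes an intermediate filament that skeletal muscle shares. Of 18 endothelial genes 3 were lower at an unadjusted p under 0.05, against 2.67% of all genes. Their median was -0.30, which was -0.64 without ADU-S100 and -0.05 with it. Without tumors 13 and 28LL the median was -0.355, and 9 of 18 were lower at an unadjusted p under 0.05, against 4.09% of all genes. In tumor 28LL 12 of the 18 endothelial genes lay above all 3 ADU-S100 tumors, against 38.0% of all genes. Cdh5, the adhesion protein of endothelial junctions, had 210, 435 and 141 CPM with HBSS and 100, 62.4 and 131 CPM with cyto-IL-15. It had 201, 205 and 237 CPM with ADU-S100 and 141, 171 and 208 CPM with the combination, which overlapped. Its pooled log2 fold change was -0.86 (standard error 0.31), from -1.42 without ADU-S100 and -0.30 with it.

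The 24 leading genes, 12 in each direction, were those with the smallest p where the mean level was 1 CPM or more. Of the 12 higher genes 11 were separated and 11 were called by DESeq2, and 7 belonged to the gene lists. Of the 12 lower genes 8 were separated and 2 were called by DESeq2 (Mest and Clca2), and the log2 fold changes of the 12 ran from -1.39 to -0.45. Zbtb20, Ecm1, Pxylp1, Sparc and Prkce also had a DESeq2 adjusted p under 0.05 (0.00172 to 0.0492). They were not called because their log2 fold changes were under 1 in size. Cdh1, E-cadherin, an adhesion protein of epithelial cells that some leukocytes also carry, had 3.95, 2.77 and 3.27 CPM with HBSS and 10.4, 6.24 and 8.94 CPM with cyto-IL-15. It had 4.42, 4.56 and 6.62 CPM with ADU-S100 and 9.30, 11.4 and 22.9 CPM with the combination. Its log2 fold change of 1.42 (standard error 0.25) was 1.36 without ADU-S100, 1.48 with it and 1.27 without tumors 13 and 28LL. Of the 12 tumor epithelial and prostate genes, 6 had log2 fold changes above 0 and 6 below. At an unadjusted p under 0.05, 2 were higher (Cdh1 and Krt18) and 1 lower, where 5.00% and 2.67% of all genes were. The keratin gene Krt18 had 1.92, and 0.09 without tumors 13 and 28LL, and the adhesion gene Epcam had 2.13, and 1.05 without them. DESeq2 also called Ocln (2.52) and Krt13 (4.22), a tight junction gene and a keratin gene outside the list that were picked after their values were seen. Dsc2, a desmosomal cadherin, had 75.8 CPM in tumor 28LL and at most 2.57 CPM elsewhere.

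Among the lower genes, Zbtb20, a zinc finger repressor, had 104, 97.3 and 86.6 CPM with HBSS and 76.0, 67.7 and 71.0 CPM with cyto-IL-15. It had 74.0, 69.4 and 91.9 CPM with ADU-S100 and 45.7, 47.2 and 42.0 CPM with the combination, a log2 fold change of -0.61 (standard error 0.11). Ecm1, a secreted matrix protein, was separated as well (-0.48, standard error 0.10). Mest, an imprinted gene of mesoderm, had 36.5, 90.5 and 30.4 CPM with HBSS and 14.2, 12.3 and 17.8 CPM with cyto-IL-15. It had 42.8, 37.6 and 41.3 CPM with ADU-S100 and 32.8, 16.8 and 13.6 CPM with the combination, a log2 fold change of -1.39 (standard error 0.32). Notch4, a receptor of endothelial cells, overlapped by 1 tumor with ADU-S100 and differed by -1.02 on the log2 scale (standard error 0.27).

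**Figure D4:**
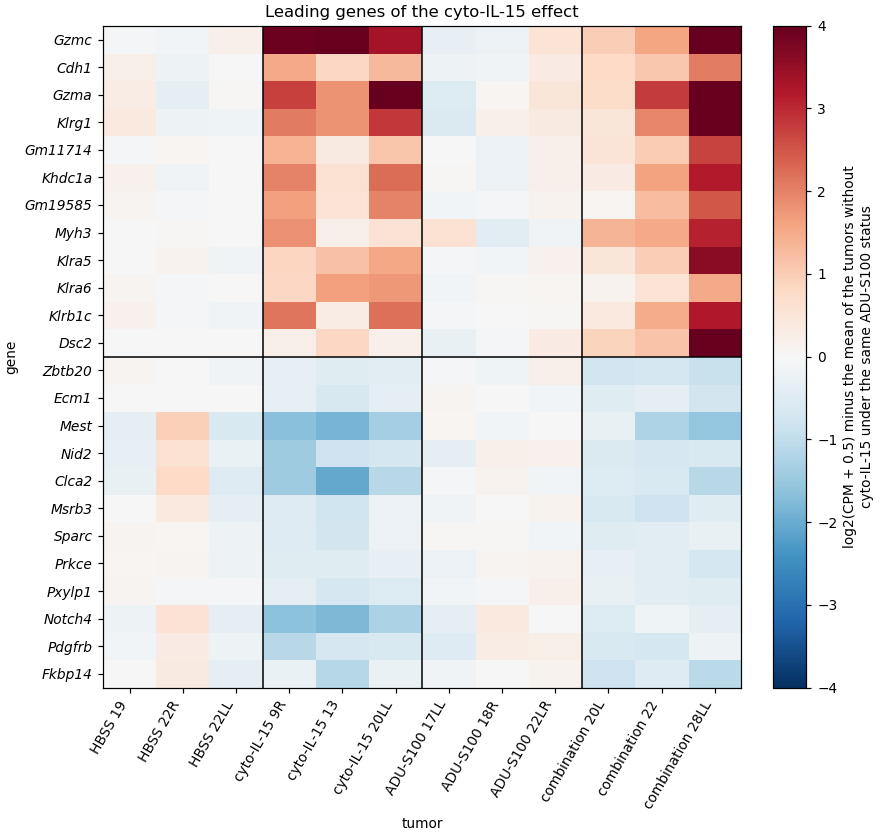
Heat map of the 12 higher and 12 lower leading genes in the 12 tumors, as log2(CPM + 0.5) minus the mean of the 3 tumors without cyto-IL-15 under the same ADU-S100 status; colours stop at 4 in either direction, and values run from -2.05 to 5.79. Tumor 28LL holds the deepest red for Gzmc, Gzma, Klrg1 and Dsc2, and the lower genes are pale blue in most of the 6 tumors with cyto-IL-15.

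Skeletal muscle RNA differed between tumors and moved with the comparison. All 25 tested muscle fiber genes had log2 fold changes above 0 and 11 were higher at an unadjusted p under 0.05, against 5.00% of all genes. Their median was 3.05 (6.03 without ADU-S100 and 1.07 with it). Without tumors 13 and 28LL none of the muscle fiber genes was higher at that level, while their median was 3.25. These genes took 0.0154 to 0.0204% of counts in the HBSS tumors, 0.176, 0.0394 and 0.0724% in cyto-IL-15 tumors 9R, 13 and 20LL, 0.0424 to 0.361% in the ADU-S100 tumors, and 0.0292% (tumor 20L), 0.164% (22) and 0.812% (28LL) with the combination. The mean log2 level of these genes in tumor 13 was 0.522, below the HBSS tumors (0.58 to 0.668), although its summed share was above theirs. In that tumor 6 of 25 genes lay above all 3 HBSS tumors and 11 below (40.1% and 39.5% of all genes). Ryr1, the calcium release channel of muscle, had 2.02 to 2.15 CPM with HBSS and 56.2, 1.43 and 17.7 CPM with cyto-IL-15. Of 10 muscle regeneration genes 7 were higher at an unadjusted p under 0.05 (5.00% of all genes), and 2 were without tumors 13 and 28LL (4.44% of all genes). Myh3, the embryonic myosin heavy chain, was separated, with 0.0976 to 0.134 CPM with HBSS, 0.216 to 1.66 CPM with cyto-IL-15, 0.155 to 0.870 CPM with ADU-S100 and 1.84 to 7.06 CPM with the combination. With the mean level of the muscle fiber genes as a covariate, the NK cell median was 0.80 in place of 1.67, and edgeR again called no gene. The part of muscle in the lymphocyte differences was not tested further. The muscle fiber genes lay above their 3 counterparts in 24, 6 and 23 of 25 in tumors 9R, 13 and 20LL, where 26, 10 and 26 of 28 NK cell genes did. In tumors 20L, 22 and 28LL this held for 0, 0 and 24 of 25 muscle fiber genes and for 5, 25 and 26 of 28 NK cell genes. The shares of all genes were 29.4%, 40.1% and 31.7% in tumors 9R, 13 and 20LL, and 26.2%, 24.9% and 38.0% in tumors 20L, 22 and 28LL.

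All 22 proliferation genes had log2 fold changes above 0, with a median of 0.238, and 1 of them was higher at an unadjusted p under 0.05, where 5.00% of all genes were. Without tumors 13 and 28LL the median was 0.245 and 10 of 22 were higher at that level, against 4.44% of all genes. All 22 lay above the 3 ADU-S100 tumors in tumor 20L (26.2% of all genes did) and 16 lay below them in tumor 28LL (38.2% of all genes did). The hypoxia, plasma cell, B cell, adipocyte, keratinocyte, red blood cell and Hippo lists had medians between -0.42 and -0.03 and at most 1 member at an unadjusted p under 0.05 in each direction. The γδ T cell and innate lymphoid list had 2 of 10 higher with a median of 0.85, and the dendritic cell list had 0 of 17 with a median of 0.42. Without tumors 13 and 28LL 5 of the 17 dendritic cell genes were higher and 3 lower at an unadjusted p under 0.05, with a median of 0.16.

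Whether cyto-IL-15 acted alike without and with ADU-S100 was asked through the product term of both factors. By edgeR 0 genes were called (0%), with 1 as the smallest adjusted p, while 2.29% of genes (461) passed an unadjusted p of 0.05. DESeq2 called 0 of 40709. Separation in opposite directions occurred in 44 genes (0.219%). Cd83, a marker of mature dendritic cells, was such a gene, with 27.9, 22.8 and 24.0 CPM with HBSS and 20.9, 8.51 and 15.9 CPM with cyto-IL-15. It had 4.28, 6.79 and 3.70 CPM with ADU-S100 and 10.9, 14.7 and 17.2 CPM with the combination. Lyz2, lysozyme of macrophages and neutrophils, overlapped without ADU-S100 (1707 to 1914 CPM with HBSS and 1285 to 1749 CPM with cyto-IL-15) and was separated with it, at 663 to 771 CPM with ADU-S100 against 1133 to 1656 CPM with the combination. The granule list had medians of 1.55 without and 2.05 with ADU-S100, and the T cell list 1.16 and 1.38.

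**Figure D5:**
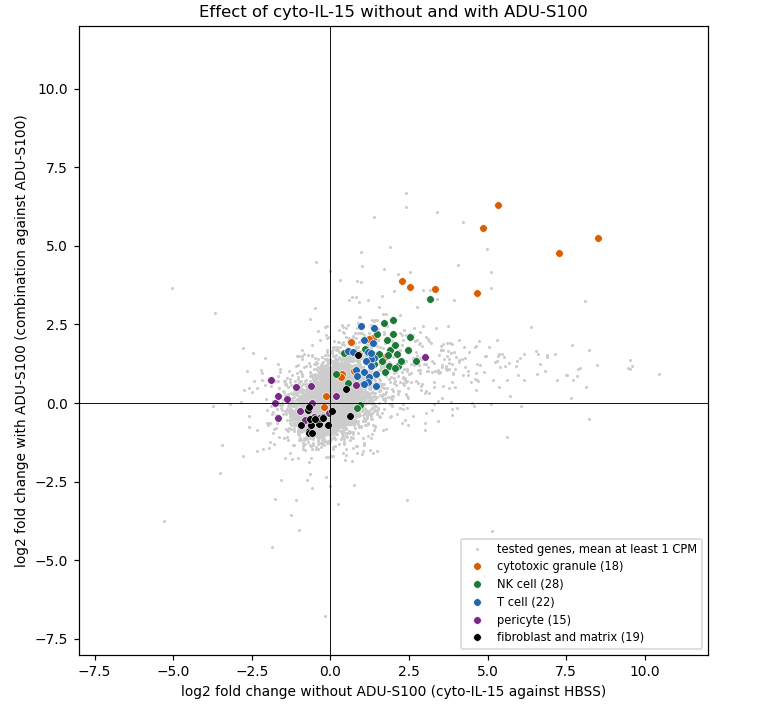
Log2 fold change for cyto-IL-15 without ADU-S100 (horizontal) against that with ADU-S100 (vertical) for the 14141 tested genes at or above a mean of 1 CPM (grey) and for the members of 5 gene lists (coloured, number in brackets). Granule, NK and T cell genes lie mostly to the upper right, fibroblast genes to the lower left, and pericyte genes spread along the horizontal axis.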

How the data were processed

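RNA sequencing counts of 12 tumors were used. Per the labels, the authors extracted total RNA with an RNeasy kit and made libraries with a NEBNext Ultra II kit. The submitters' processing notes list demultiplexing with bcl2fastq 2.20, trimming with Trimmomatic 0.36, the aligner STAR 2.5.2b, counting with featureCounts (Subread 1.5.2), DESeq2, and as builds mm10 and GRCm38. The deposited values are whole-number read counts for 49315 Ensembl genes per tumor, 48970 of which were given a symbol. The strand setting and the handling of reads that map to several places are not given in the sources used here.

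Counts were tested with edgeR 4.0.16 under R 4.3.3 (normalized by TMM, filtered by filterByExpr with a minimum count of 10 and a minimum total of 15, robust quasi-likelihood F test, Benjamini-Hochberg adjustment over all tested genes) in an additive model of cyto-IL-15 and ADU-S100, with 9 residual degrees of freedom. The biological coefficient of variation was 0.427 (0.291 without tumors 13 and 28LL), which sets the precision at this depth. A log2 fold change is given minus not given, and levels are TMM-normalized CPM. The script was tested on simulated data. Alternatives were DESeq2 1.42.0, limma 3.58.1 voom with and without tumor weights, the likelihood ratio test, RLE size factors, no filter, other models, and tumors left out.

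The members and the 30 gene lists were chosen with earlier results of these data known. Named genes are the 12 higher and 12 lower genes with the smallest p and a mean of at least 1 CPM, up to 4 genes with the smallest p from each list, list genes separated in both strata, the 5 genes with the smallest p of the product term, and a set named in any case, also with earlier results known (Il15, Il15ra, Il2rb, Il2rg, Gzma, Gzmb, Gzmc, Prf1, Ifng, Ncr1, Eomes, Cxcl11, Ifi44, Irgm1, Xaf1 and Yap1). Genes outside this rule are marked, apart from Krt8 and Pbsn, which check the tumor label. Some items are not reported here. Lists are described by counts and medians without a test.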

Additional observations from a re-analysis of the deposited data

Results flagged for a closer look

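Within the 6 tumors with or the 6 without cyto-IL-15, 228 sets of values were checked for a tumor far from the rest by Dixon's ratio, and 21 were found, where chance gives about 1 in 20. Combination tumor 28LL was the far tumor for Klra5 (11.1 CPM), Dsc2 (75.8 CPM), Il2ra (57.3 CPM), Icos (25.1 CPM), Pdcd1lg2 (7.94 CPM) and Epcam (11.9 CPM) on the high side. The mean log2 level of the STAT5 list was 6.59 and that of the pericyte list 4.76 in the same tumor. Cyto-IL-15 tumor 13 was far for Lum (18.4 CPM, low), Krt18 (6.09 CPM, high) and the Hippo list (7.36, high, with Yap1 among its members). HBSS tumor 22LL was far on the high side for Yap1 (5049 CPM), Tead4 (7.34 CPM), Krt18 (0.962 CPM) and the Hippo list (6.72). HBSS tumor 22R was far for Mest (90.5 CPM) and Clca2 (20.4 CPM), combination tumor 20L for Mest (32.8 CPM) and cyto-IL-15 tumor 9R for Nid2 (35.9 CPM). ADU-S100 tumor 17LL was far for Col3a1 (2966 CPM, low) and the keratinocyte list (1.10, high).

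Cd83 and Bend4 were lower with cyto-IL-15 in every tumor without ADU-S100 and higher in every tumor with it, relative to their 3 counterparts. The product term was 2.26 for Cd83 and 1.63 for Bend4 on the log2 scale. Neither passed the test of that term by edgeR, with an adjusted p of 1.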

How the results depend on the processing

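The count of 0 genes that edgeR called held with limma voom, with tumor weights, with RLE size factors, without a filter, under the other models and without any tumor, whereas DESeq2 called 80 genes and the likelihood ratio test 47. Higher genes at an unadjusted p under 0.05 (1007) were 1644 with DESeq2, 533 with voom and 1711 without a filter, and 637 to 1518 without single tumors (637 without HBSS tumor 22R, 663 without ADU-S100 tumor 22LR, 669 without combination tumor 28LL, 1518 without combination tumor 20L). Lower genes (537) were 1093 with voom and tumor weights, 845 without tumors 13 and 28LL, and 326 to 775 without single tumors (326 without 22R, 349 without 22LR). The higher share of these genes was 65.2%, but 40.6% with voom, 48.5% with tumor weights and 52.0% without tumors 13 and 28LL. For the product term 461 genes became 752 with DESeq2, 1531 with tumor weights, 1706 without tumors 13 and 28LL, and 272 to 846 without single tumors (272 without 22R, 733 to 846 without 9R, 13, 20LL, 20L or 28LL). Separated genes necessarily become more frequent with fewer tumors, with 283 higher and 337 lower without tumors 13 and 28LL, and 114 to 237 higher and 122 to 297 lower without single tumors.

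With the muscle covariate the medians were 0.80 for NK cell, 0.11 for γδ T cell, 0.048 for effector cytokine, 0.18 for dendritic cell, 0.23 for monocyte, 0.22 for muscle fiber, 1.07 for muscle regeneration and -2.07 for adipocyte genes. Log2 fold changes that reversed under it were -0.088 for Il15ra, -0.35 for Irgm1, -0.14 for Ryr1, -0.12 for Neb and 0.007 for Bend4. With tumor weights the medians were 0.15 for dendritic cell, -0.038 for neutrophil, 0.051 for monocyte, -0.17 for mast cell, 0.89 for muscle regeneration and 0.15 for keratinocyte genes, and Irgm1 was -0.14, Yap1 -0.87 and Tead4 -0.24. With voom they were 0.70 for mast cell, 0.98 for muscle fiber, 1.08 for muscle regeneration and 0.52 for keratinocyte genes, and Irgm1 was -0.077. Without tumors 13 and 28LL they were 0.16 for dendritic cell, -0.044 for neutrophil, -0.02 for monocyte and -0.042 for mast cell genes, and Socs3 was 0, Irgm1 -0.12, Yap1 -1.85 and Tead4 -0.59. Without the ADU-S100 factor the muscle regeneration median was 1.35, and Irgm1 was -0.018, Cd83 -0.021 and Ogdhl 0.10. The causes were not tested.

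Without single tumors the medians ranged from 0.25 to 1.04 for effector cytokine (0.245 without 28LL), 0.27 to 1.62 for neutrophil (0.274 without 28LL), 0.27 to 0.93 for monocyte (0.273 without 28LL), 0.78 to 2.71 for mast cell (0.779 without 13) and -0.65 to 1.63 for keratinocyte genes (above 0 without 17LL, 20L, 22 or 28LL). The exact permutation p ranged from 0.01 to 0.05 for Il2rb, 0.01 to 0.305 for Ifng, 0.275 to 0.78 for Il15ra, 0.005 to 0.03 for Ncr1 and 0.005 to 0.025 for Gzmb and Prf1. Log2 fold changes ranged from -0.32 to 0.08 for Il15, -0.032 to 0.44 for Il15ra, -0.59 to 0.029 for Cxcl11, -0.21 to 0.14 for Irgm1 and -0.11 to 3.59 for Yap1. No paired analysis was made, because the labels do not say what the numbers in the tumor names mark. Of these numbers, the tumors given and not given cyto-IL-15 share 1 (22), and a dependence between such tumors was not tested.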

Other observations

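Of the 80 genes that DESeq2 called for cyto-IL-15, 25 were in a gene list, and 28 of the higher and 3 of the lower genes were separated in both strata. Several of the called genes outside the lists, picked here after their values were seen, belong to lymphocytes. Cd96, a receptor of NK and T cells, differed by 1.89 on the log2 scale (standard error 0.43), and Sh2d1a, the adaptor SAP of NK and T cells, had 1.98 (standard error 0.52). Sh2d2a, an adaptor of activated T cells, had 1.99 (standard error 0.50), and Clnk, an adaptor of NK and mast cells, had 2.29 (standard error 0.51). Khdc1a and Khdc1c, neighbouring members of a family with a K homology domain, had 3.07 (standard error 0.55) and 2.36 (standard error 0.63). The called lower genes other than Mest and Clca2 were Gprasp2 (-2.80, standard error 0.72), Itih2 (-1.57, standard error 0.42), 9530018H14Rik (-1.92, standard error 0.50) and the immunoglobulin segment Igkv2-109 (-3.83, standard error 0.99).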
